A study of Mus musculus with 8 samples.

Results

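Peritoneal macrophages of LysMCre-fur(fl/fl) mice, in which Cre is expressed from the LysM (Lyz2) locus and deletes the floxed Furin gene in myeloid cells, were compared after 24 h of LPS and without stimulation. These mice are called KO and were on the C57BL/6 background, like their WT littermates. FURIN is a proprotein convertase, a protease that cuts and so matures precursor proteins such as pro-TGF-β1 in the secretory pathway. The comparison used the KO channels of 4 arrays, 2 at 24 h of LPS (1 μg/ml) and 2 unstimulated, out of 16 channels on 8 Agilent 2-color arrays. The other channels held WT RNA at the same times, and KO and WT RNA after 1 and 4 h of LPS. KO RNA was labeled with Cy5 in replicate 1 and Cy3 in replicate 2, so that each KO group holds both dyes, and the labels call the replicates biological. A growth protocol in the labels names 4 h of stimulation for all samples, so times were taken from the titles. Cells were collected from the peritoneal cavity, allowed to adhere for 24 h, washed and kept for 1 h in medium with little serum before LPS was added. They were not sorted. Values are log2 intensities after normalization between arrays, and differences between groups are log2 changes with their standard error (SE), for 36936 genes and transcripts tested, of which 20839 have a gene symbol. Adjusted p-values are from limma, with a Benjamini-Hochberg correction across the whole set tested, and 0.05 is the threshold. Replicates numbered 2 per group, which limits the precision, and between 45.6% and 48% of the probes were well above background in the 4 KO channels.

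LPS, a component of the outer membrane of Gram-negative bacteria, is sensed by the receptor TLR4 with its partners CD14 and MD-2 (Ly96). The adaptor MyD88 leads to NF-κB and AP-1, which induce cytokines and chemokines within the first hours, and the adaptor TRIF leads to interferon β, which through the JAK-STAT pathway turns on interferon-stimulated genes. After a day, feedback inhibitors such as A20 (Tnfaip3) and SOCS proteins restrain the first wave, cell metabolism has shifted toward glycolysis, and resident macrophages lose much of the expression that marks their tissue of origin.

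The deleted gene itself was measured in all KO channels. Furin read 10.98 and 10.63 (replicates 1 and 2) in unstimulated KO cells and 10.59 and 10.37 after 24 h. In WT cells it read 11.56 and 11.48 unstimulated and 11.18 and 11.06 after 24 h, so that both KO values lay below both WT values at these times. The difference of KO from WT was -0.72 (SE 0.13, adjusted p = 0.0574) unstimulated and -0.64 (SE 0.13, adjusted p = 0.102) at 24 h, neither of which passed the threshold. Where the probe lies relative to the deleted part was not examined, so the remaining signal does not measure how complete the deletion was. From unstimulated to 24 h Furin changed by -0.32 in KO (SE 0.14, adjusted p = 0.0991). This change passed with the replicate number and the dye as a block (adjusted p = 0.0428). It was -0.49 without unstimulated replicate 2 and -0.15 without unstimulated replicate 1. At 4 h the KO channels had read 12.02 and 11.97, above both other times. The WT channels read 12.02 and 11.64 at 4 h, so that KO did not lie below WT there. Of the 9 proprotein convertases and related proteases measured, Furin included, 1 passed the test: Mbtps1, the site-1 protease of the Golgi, fell by 1.09 (SE 0.09), with -0.43 by its dimmer probe. Pcsk7, which like Furin is broadly expressed, changed by 0.26 (adjusted p = 0.118), and Pcsk1, Pcsk5 and Pcsk6 were not well above background in either KO group. Lyz2, the lysozyme gene that carries the Cre insertion, read 17.10 and 16.96 unstimulated and 14.23 and 14.004 at 24 h, a fall of 2.91 (SE 0.21, adjusted p = 1.29e-07). It was lower in KO than in WT at 24 h by 1.73 (the KO minus WT difference was -1.73, SE 0.20, adjusted p = 0.00483).

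Between 24 h of LPS and unstimulated KO cells, 10581 of the 36936 genes and transcripts tested differed (28.6%). Of these, 4693 were higher at 24 h (12.7% of those tested) and 5888 lower (15.9%). With normalization within arrays only, 4974 were higher and 4213 lower, so that which direction held more genes depends on the scaling between arrays. Over 2-fold, 1864 were higher (5.05%) and 1783 lower (4.83%). Among the genes with a symbol 7328 passed (35.2%): 3148 were higher (15.1%) and 4180 lower (20.1%). All 10581 moved the same way in both replicates, and in 10580 of them the 24 h and unstimulated channels did not overlap. Over all genes tested, 58.9% did not overlap. The calls were made from these same channels, so both counts follow largely from the selection and are no separate support. The median log2 change over all genes tested was -0.015. The sources used here do not state a matched 24 h control, so LPS and time in culture cannot be told apart. With 2 channels a group a standard error rests on the spread pooled across the 8 groups, and the methods' t-test on the 4 channels alone called 630.

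Lcn2, which encodes the siderophore-binding protein lipocalin 2, read 8.32 and 7.68 unstimulated and 17.40 and 17.61 at 24 h, the largest rise, 726-fold (9.50 on the log2 scale, SE 0.21, adjusted p = 6.49e-12). Csta2, a stefin A gene for an inhibitor of cysteine proteases, rose from 7.498 and 7.08 to 16.53 and 16.60. Its relatives Cstdc5, Cstdc4 and Stfa2l1 were also among the 12 largest rises. Cstdc5 rose by 8.17, and Cstdc4 and Stfa2l1, not well above background in unstimulated cells, were at least 177-fold and at least 129-fold higher. The stefin A genes are near-identical copies, so their probes may share signal and the 4 are uncertain as separate genes. Il19, a cytokine of the IL-10 family, was not well above background in unstimulated cells (6.20 and 6.17) and read 14.88 and 14.83 at 24 h, at least 335-fold higher by its brightest probe. Its other probe was not well above background there either. The long non-coding RNA U90926 was at least 279-fold higher and Csf3, which encodes the granulocyte growth factor G-CSF, at least 127-fold higher. These bounds set the bright group's mean against the dimmest level well above background on each array. Cxcl10, a chemokine for T cells, rose 326-fold, Il6 248-fold, Ch25h, which makes 25-hydroxycholesterol, 156-fold, and Ptgs2, the inducible cyclooxygenase COX-2, 143-fold. In the plot of the largest changes the replicates lay close together next to the distance between the groups, which the choice of these genes favors.

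**Figure D1:**
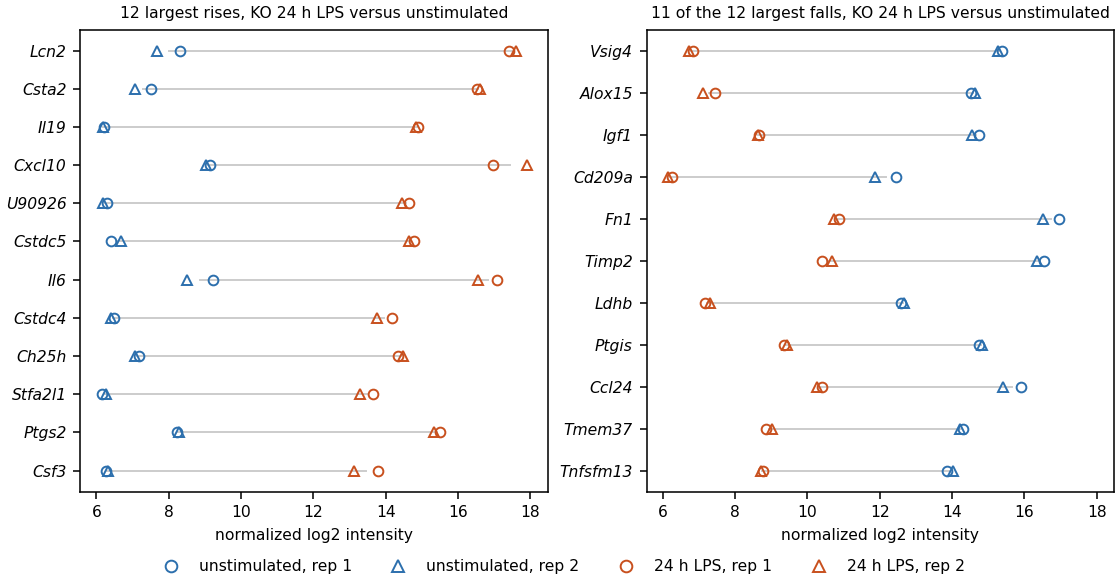
Normalized log2 intensity (x axis) of the 12 genes that rose most and 11 of the 12 that fell most in KO cells, 1 line a gene; blue symbols are the unstimulated and orange symbols the 24 h LPS channels, circles replicate 1 and triangles replicate 2, and gray lines join the group means. Lcn2 went from 8.32 and 7.68 to 17.40 and 17.61 and Vsig4 from 15.38 and 15.28 to 6.84 and 6.73. The genes were chosen as the largest changes that passed the test, so the groups lie apart by selection.

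Vsig4, a complement receptor of tissue macrophages (CRIg), read 15.38 and 15.28 unstimulated and 6.84 and 6.73 at 24 h, the largest fall, of 8.54 on the log2 scale (SE 0.28, adjusted p = 1.04e-10). Alox15, the 12/15-lipoxygenase, went from 14.52 and 14.65 to 7.44 and 7.12. Igf1, the insulin-like growth factor, fell by 6.02, and by 3.33 to 7.07 by its 3 other probes. Cd209a, a C-type lectin, was not well above background at 24 h and at least 54.6-fold lower there by its brightest probe; its other probe was not well above background there either. Fn1, which encodes fibronectin, went from 16.96 and 16.52 to 10.87 and 10.74, a fall of 5.94. Timp2, an inhibitor of metalloproteases, fell by 5.91, and by 3.23 by its other probe. Ldhb, a lactate dehydrogenase subunit, fell by 5.41, Ptgis, the prostacyclin synthase, fell by 5.39, Ccl24, a chemokine for eosinophils, and Tmem37, a membrane protein, fell by 5.33 each, and Tnfsfm13, a fused transcript of Tnfsf12 and Tnfsf13, by 5.19, with -3.39 by its other probe.

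Interferon-stimulated genes rose as a whole list. Counts of lists here and below stand against 15.1% of all genes with a symbol higher and 20.1% lower. Of 31 measured, 31 were higher at 24 h and 0 lower, with a median change of 3.71 against -0.015 over all genes tested. Rsad2, which encodes the antiviral protein viperin, went from 8.73 and 8.46 to 15.18 and 15.47, a 106-fold rise (SE 0.17 on the log2 scale). Ifit3, an RNA-binding antiviral protein, rose by 6.56, Oasl1 by 6.28 and Ifit1 by 6.03. The guanylate-binding proteins and immunity-related GTPases, which attack vacuoles that hold pathogens, gave 16 of 16 higher with a median of 2.87. Tgtp2 rose by 4.49 (1.91 by its other probe) and Gbp5 from 9.75 and 9.91 to 13.47 and 13.94. Of the factors that control them, Irf7, which amplifies the interferon response, rose by 5.36 (SE 0.20), Stat2 by 2.44 and Jak2 by 2.20, while Irf1 changed by 0.09 (adjusted p = 0.737) and Irf2, a repressor, fell by 1.23. Of that list of 22 factors, 10 rose, 5 fell and 7 did not pass the test, the falls being near the share of all genes with a symbol.

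Promoters of 4 rising genes show motifs known for these pathways, and were chosen because they hold them and after the genes' values were seen. Each is the 250 bases before the start of transcription in RefSeq (GRCm38.p6), all on the minus strand and printed 5′ to 3′ along the gene. For Cxcl10 (chr5:92348890-92349139) the capitals mark 1 match to the interferon-stimulated response element (ISRE, searched as TTTC, any 2 bases, TTTC) and 2 matches to the NF-κB consensus. For Isg15 (chr4:156200819-156201068), an ubiquitin-like protein, they mark 3 overlapping ISRE matches, and for Nfkbia (chr12:55492648-55492897), the NF-κB inhibitor IκBα, 1 NF-κB match. For Cdk1 (chr10:69352913-69353162), the kinase that starts mitosis, they mark 2 matches to the cell cycle homology region (CHR, TTTGAA).
Cxcl10: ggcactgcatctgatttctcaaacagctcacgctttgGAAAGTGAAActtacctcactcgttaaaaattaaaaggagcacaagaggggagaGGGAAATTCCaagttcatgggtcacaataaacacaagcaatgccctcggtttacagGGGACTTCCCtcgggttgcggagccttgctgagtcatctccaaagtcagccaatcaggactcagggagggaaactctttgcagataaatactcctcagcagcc
Isg15: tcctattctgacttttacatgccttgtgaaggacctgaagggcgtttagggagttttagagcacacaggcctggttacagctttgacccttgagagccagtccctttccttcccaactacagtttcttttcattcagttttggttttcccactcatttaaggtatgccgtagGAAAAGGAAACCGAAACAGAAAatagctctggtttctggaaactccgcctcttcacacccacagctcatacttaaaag
Nfkbia: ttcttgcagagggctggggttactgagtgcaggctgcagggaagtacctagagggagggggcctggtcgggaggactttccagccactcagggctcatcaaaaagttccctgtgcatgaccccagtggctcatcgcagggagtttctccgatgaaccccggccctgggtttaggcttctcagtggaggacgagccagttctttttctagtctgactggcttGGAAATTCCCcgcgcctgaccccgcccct
Cdk1: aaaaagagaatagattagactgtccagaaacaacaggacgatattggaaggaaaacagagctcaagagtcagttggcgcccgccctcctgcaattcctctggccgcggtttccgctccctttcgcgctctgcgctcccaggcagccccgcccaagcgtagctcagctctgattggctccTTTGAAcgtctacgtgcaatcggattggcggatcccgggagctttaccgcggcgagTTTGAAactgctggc
Matches on both strands were counted in windows from 250 bases before to 50 after the start, which RefSeq gave for 25 of the 31 interferon-stimulated genes. The ISRE was in 50% of their 30 windows and in 81.8% of the 11 windows of 10 guanylate-binding proteins and GTPases, against 3.44% of all 32851 windows. The NF-κB consensus was in 54.5% of the 22 windows of 17 genes of NF-κB subunits and inhibitors, against 4.51% of all windows, and the CHR in 48.3% of the 29 windows of 27 DNA replication and mitosis genes, against 17.9%. The CHR was also in 45.5% of the windows of the guanylate-binding proteins and GTPases. Among the 12 largest rises, of which 11 have a window, 2 held an ISRE, 3 an NF-κB and 2 an AP-1 match (TGANTCA), and among the 7 largest falls with a window none held an ISRE or NF-κB match and 2 an AP-1 match, which 7.81% of all windows hold. E2F matches (TTTGGCG) were in 3 of the 29 windows of the DNA replication list and in 1.56% of all. A match is a string of letters and was not tested as a binding site. Isg15 rose from 11.27 and 10.95 to 16.81 and 17.01, Nfkbia from 14.62 and 14.86 to 16.11 and 16.35, and Cdk1 from 6.88 and 7.05 to 10.13 and 10.27 (its 2 other probes changed by 0.14 and 0.92).

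Inflammatory cytokines were mostly higher at 24 h: of 27 measured, 21 rose, 2 fell and 4 did not pass the test, with a median of 2.11. Il1b, which encodes pro-IL-1β, went from 11.67 and 10.92 to 17.21 and 16.61, a 49.0-fold rise. Inhba, the activin A subunit, rose by 6.40 (SE 0.74). Il10, the anti-inflammatory cytokine, read 7.18 and 7.84 unstimulated and 10.76 and 11.22 at 24 h, an 11.1-fold rise. Tnf rose 4.33-fold, from 10.998 and 11.32 to 13.49 and 13.05. The 2 that fell were Csf1, the macrophage growth factor M-CSF, by 1.47 (-0.86 and -0.92 by its other probes) and Tgfb1, a substrate of FURIN, by 0.81 (SE 0.18, adjusted p = 0.00379); the call for Tgfb1 was lost without unstimulated replicate 1 (adjusted p = 0.0677), without 24 h replicate 2 (adjusted p = 0.0721) or with normalization within arrays only (adjusted p = 0.0517). Il23a, not well above background in either group, and Lif, not well above it in unstimulated cells, did not pass the test. Il12b was not analysed here.

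Chemokines moved in both directions: 15 of 25 rose, 8 fell and 2 did not pass the test. Ccl7, a monocyte chemokine, went from 10.74 and 10.00 to 16.50 and 17.64 (6.70, SE 0.54). Ccl12 rose by 6.54 and Cxcl5, a neutrophil chemokine, from 7.22 and 7.42 to 13.91 and 13.78. Beside Ccl24, the falls were led by Cxcl14 (4.29), Ccl6 (4.24) and Cxcl12 (2.31), which resting tissue cells express. Of the chemokine and chemoattractant receptors 5 of 23 rose, near the 15.1% of all genes with a symbol, and 14 fell, against 20.1% of all. The formyl peptide receptors Fpr1 and Fpr2, which sense bacterial peptides, rose by 3.17 and 2.37 and Cxcr4 fell by 2.37.

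Of 27 Toll-like receptors and adaptors, 9 rose, 11 fell and 7 did not pass the test, with a median of -0.19 (0.14 where arrays were normalized within arrays only). Of all genes with a symbol 15.1% were higher and 20.1% lower. Tlr4 read 10.14 and 10.29 unstimulated and 10.20 and 10.30 at 24 h (0.03, adjusted p = 0.941), and its partners Cd14 and Ly96 changed by -0.24 and 0.16, not past the threshold. Tlr13 fell by 2.69 and Tlr2 by 1.89, while Tlr3 rose by 1.94 and Myd88 by 1.24. Of the NF-κB subunits and inhibitors 13 of 20 rose, led by Traf1 (3.24), Nfkbiz (2.50) and Tnfaip3 (2.41), and 3 fell (Nfkbid, Otulin and Cyld, whose other probe changed by 0.07), with a median of 1.05. Of the negative regulators 13 of 24 rose and 4 fell. The falls in this list and in the NF-κB list were near the share of all genes, which leaves little to read from them. Socs1, which blocks JAK kinases, went from 8.06 and 7.93 to 13.22 and 13.33, a 38.9-fold rise, and Socs3 rose 15.2-fold. Among the immediate early transcription factors, 4 of 21 rose, near the 15.1% of all genes with a symbol. There were 9 falls, where 20.1% of all were lower, led by Egr2 (a fall of 3.57) and Klf10 (a fall of 3.10).

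Genes of DNA replication and mitosis rose together. Of 32 measured, 30 were higher, 0 lower and 2 (Ccne2 and Cenpf, with no channel well above background at either time) did not pass the test, with a median of 2.99. Rrm2, a subunit of the reductase that makes deoxyribonucleotides, went from 8.91 and 8.59 to 13.34 and 13.85, a 28.8-fold rise (SE 0.25 on the log2 scale). Birc5 (survivin) rose 22.98-fold (4.52 on the log2 scale, and 3.91 and 2.96 by its other probes), Plk1, a mitotic kinase, 17.7-fold, and Top2a, a topoisomerase of dividing cells, from 7.08 and 7.17 to 10.95 and 11.35. Of the genes that gate the cell cycle, Ccnd2 rose by 3.25 and Ccnd1 fell by 1.97, and the inhibitors Cdkn1c and Cdkn1b fell by 1.89 and 1.12. Macrophages, lymphocytes and other cells of the culture all carry these genes, and which of them rose was not measured. Since bulk RNA was used, here and in what follows more or fewer cells of a type and more or less RNA per cell cannot be told apart.

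Of 20 genes of glycolysis and itaconate 15 rose and 0 fell, with a median of 0.74. Acod1, which makes itaconate, went from 13.45 and 13.48 to 16.65 and 16.61 (8.98-fold), Slc16a3, the lactate exporter MCT4, rose 5.16-fold, and the glucose transporter Slc2a1 rose by 1.81. Of 20 TCA cycle genes 1 rose and 8 fell (3 and 2 with normalization within arrays only), led by Idh1 (a fall of 2.39) and Idh2 (a fall of 1.68). Of 27 nuclear-encoded respiratory chain subunits 0 rose and 10 fell, by less than 2-fold each, but 5 rose and 1 fell with normalization within arrays only. Nos2, the inducible nitric oxide synthase, went from 8.11 and 7.82 to 13.92 and 14.61 (78.8-fold), and Slc7a2, which imports its substrate arginine, rose 52.5-fold. Arg1, which competes for arginine, read 11.74 and 11.09 unstimulated and 12.74 and 13.38 at 24 h (1.64, SE 0.70, adjusted p = 0.103). The groups did not overlap, but its SE was large. The change passed the threshold with the replicate number and the dye as a block (adjusted p = 2.93e-04). Of the sterol and fatty acid synthesis genes 10 of 23 rose, led by Scd2 (2.62), and 3 fell.

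Lipid mediator genes were split. Of 18 genes of prostaglandin and leukotriene synthesis 4 rose (Ptgs2, Pla2g4a, Ptges and Ptges2) and 11 fell, among them Alox15, Ptgis, Alox5 (3.79), the enzyme of leukotriene synthesis, and Ptgs1 (2.61), the constitutive cyclooxygenase. The 2 probes of Ptges, the prostaglandin E synthase, gave 0.88 and 3.88. Of the 15 genes of oxysterol synthesis and cholesterol efflux 3 rose (Ch25h, Cyp7b1 by 0.90 and Nr1h3 by 0.66) and 10 fell, led by Lpl, a lipase, with a change of -4.07.

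**Figure D2:**
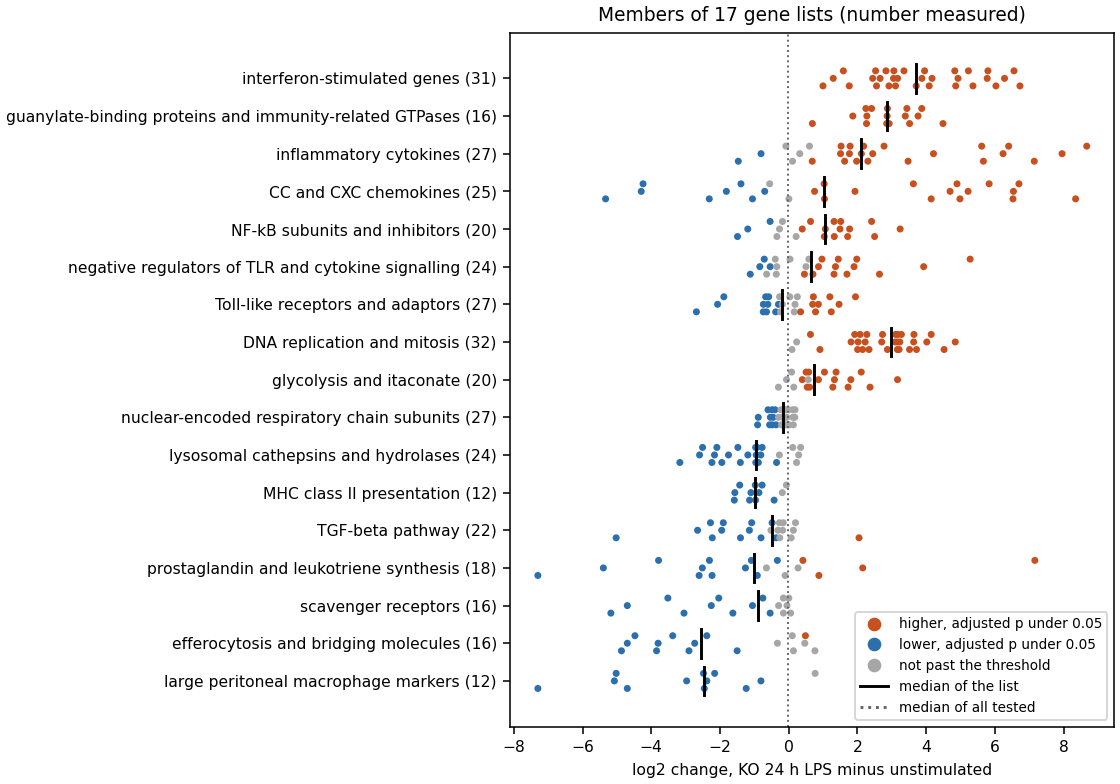
Log2 change from unstimulated to 24 h LPS in KO cells (x axis) of each measured member of 17 gene lists, with the number measured in parentheses; orange points passed the test as higher, blue points as lower and gray points did not pass, black bars are list medians and the dotted line is the median of all genes tested (-0.015). The interferon-stimulated list has all 31 points above the dotted line and the list of large peritoneal macrophage markers has 11 of 12 points lower; with normalization within arrays only, the median of the respiratory chain list turns from -0.18 to 0.20 and that of the Toll-like receptor list from -0.19 to 0.14.

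Genes that mark resident peritoneal macrophages fell. Of the 12 markers of large peritoneal macrophages, the resident population, 11 were lower and 0 higher, with a median of -2.47. Beside Alox15, F5 (coagulation factor V) fell by 5.07 (-3.85 by its other probe) and Tgfb2 from 11.71 and 11.87 to 6.66 and 6.89 (-5.02, and -4.21 by its other probe). Timd4, a receptor for phosphatidylserine on dying cells, went from 12.62 and 12.38 to 8.01 and 7.59. Gata6, the transcription factor that specifies these cells, named here after its values were seen, went from 10.24 and 10.45 to 7.23 and 7.52. Selp changed by 0.77 (adjusted p = 0.380). Of the general macrophage markers 4 of 7 fell (Lyz2, Mertk, Csf1r and Itgam, the last by its brightest probe, with 0.02 and -0.30 by its 2 other probes), Fcgr1 rose by 2.80, and Adgre1 changed by -0.36 and Cd14 by -0.24, not past the threshold. All 7 were well above background in all 4 KO channels.

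Genes by which macrophages clear and digest cells fell with them. Of 16 genes of efferocytosis 10 were lower and 1 (Tyro3) higher, with a median of -2.56. The complement C1q chains C1qa, C1qb and C1qc were lower, with changes of -3.38, -3.801 and -4.87, as were the bridging proteins Gas6 and Pros1, with -4.47 and -3.85. Of 16 scavenger receptors 10 fell and 0 rose, with Cd5l from 13.98 and 14.21 to 8.87 and 8.98 and Cd36 from 13.53 and 13.58 to 10.02 and 10.06, while Marco and Msr1 changed by -0.29 and -0.15, not past the threshold, and the other probe of Msr1 by 1.01. Of 24 lysosomal cathepsins and hydrolases 19 fell and 0 rose (15 and 2 with normalization within arrays only), led by Lipa, the lysosomal acid lipase, an 8.98-fold fall. Of 12 genes of MHC class II presentation 10 fell and 0 rose, with a median of -0.97 and H2-Aa from 14.14 and 14.83 to 13.20 and 13.49. Of 16 genes of MHC class I presentation and the immunoproteasome 10 rose and 0 fell, led by Tap1 (2.62) and Nlrc5 (2.39, and 0.86 by its other probe), the class I transactivator.

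The TGF-β pathway, in which FURIN acts on the ligands, was mostly lower: of 22 members 1 rose, 12 fell and 9 did not pass the test, with a median of -0.50. Beside Tgfb1 and Tgfb2 the receptor Tgfbr1 fell by 2.28 (-1.10 by its other probe), and Ltbp1 and Ltbp3, which hold the latent ligand, by 2.65 and 2.22. The co-receptor Eng rose by 2.05. Smad2 and Smad4, the signal transducers, changed by 0.07 and -0.31, and Smad7, the inhibitor, by -0.52, none past the threshold. Of the circadian clock genes 11 of 18 fell and 0 rose, led by Dbp, a clock output factor, from 13.13 and 13.27 to 9.54 and 9.60. Cells at 24 h and unstimulated cells also differ in their time in culture unless a matched 24 h control was kept, which the sources used here do not state.

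Markers of other cells moved as well. All 8 B cell markers were well above background in the 4 KO channels. As a list they read 13.49 and 13.996 unstimulated and 12.51 and 12.67 at 24 h (log2 of the mean intensity over the list), with 2 of 8 lower and 0 higher, where 20.1% of all genes with a symbol were lower, a share that leaves little to read from this count. Of 9 T and NK cell markers, 7 were well above background in all 4 channels and 4 were lower, and the list went from 10.40 and 10.47 to 9.90 and 9.78. Mast cell markers fell, 5 of 7, with Cpa3, a mast cell protease, from 11.79 and 12.64 to 9.87 and 10.04. Of the neutrophil markers, S100a8 rose from 11.22 and 10.92 to 15.16 and 15.97 and Camp by 1.62, Elane fell by 0.88, and S100a9, Ngp, Ltf and Mpo were not well above background. Of 10 mesothelial and fibroblast markers 3 rose, where 15.1% of all genes with a symbol were higher. They were Dcn (decorin), from 8.18 and 7.65 to 10.85 and 10.96, Lum by 1.94 and Col1a2 by 0.56. The mesothelial markers Msln, Upk3b and Wt1 did not pass the test. The plot of marker lists gives these levels. Their part in the changes of other genes was not tested. Of 14 housekeeping genes 3 rose, 4 fell and 7, among them Actb (0.05) and Ppia (0.12), did not pass the test. These counts are near the shares of all genes with a symbol (15.1% higher and 20.1% lower), which leaves little to read from them.

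**Figure D3:**
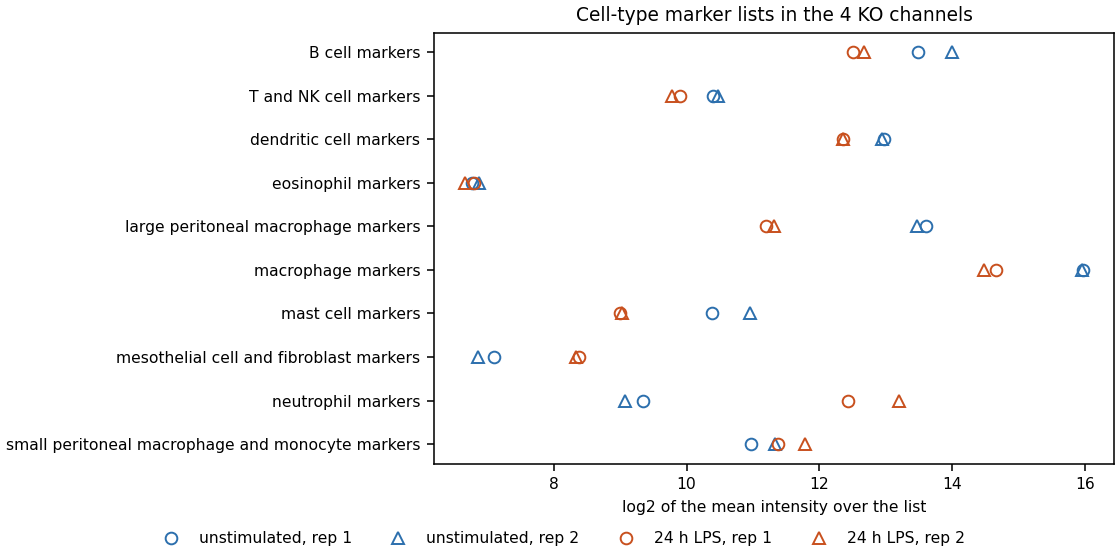
Log2 of the mean intensity over each of 10 cell-type marker lists (x axis) in the 4 KO channels; blue symbols are unstimulated and orange symbols 24 h LPS, circles replicate 1 and triangles replicate 2. The large peritoneal macrophage list went from 13.61 and 13.47 to 11.19 and 11.31, and the neutrophil list, which S100a8 leads, from 9.34 and 9.07 to 12.43 and 13.20.

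Whether 24 h differed from the earlier peak of the response was asked by setting KO cells at 24 h against KO cells at 4 h, which shares the 24 h channels with the comparison above. Of the genes tested 11345 differed (30.7%), 5767 higher at 24 h (15.6%) and 5578 lower (15.1%). With normalization within arrays only the split was 8316 and 2186, so that 79.2% rather than 50.8% of those called were higher, and the balance of directions depends on the scaling between arrays. The stefin A genes rose late: Csta2 read 9.02 and 8.67 at 4 h and 16.53 and 16.60 at 24 h (7.72, SE 0.40, adjusted p = 1.33e-08), and Cstdc5, Cstdc4, Stfa2l1 and Stfa3 were higher at 24 h than at 4 h by 7.16, 6.96, 6.76 and 5.52. Plagl1, a zinc finger factor, did the opposite. It read 7.33 and 7.03 unstimulated, 14.53 and 14.47 at 4 h and 7.56 and 7.32 at 24 h, by the brightest of its 4 probes. The change from 4 h to 24 h was -7.06 by that probe and -4.05 by the mean of the 4. Tnfsf15, the cytokine TL1A, read 13.17 and 13.21 at 4 h and 7.39 and 7.81 at 24 h. Vsig4 and Fn1 were lower at 24 h than at 4 h by more than 5 on the log2 scale (-5.78 and -5.53).

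At 4 h, 36% of the genes tested differed from unstimulated KO cells, 16.2% higher and 19.8% lower. By lists, the interferon-stimulated genes had a median of 4.55 at 4 h and 3.71 at 24 h, each against the same unstimulated channels. The cytokines stood at 4.69 and 2.11, and 19 of 27 were lower and 2 higher at 24 h than at 4 h. Tnf read 17.90 and 17.09 at 4 h against 13.49 and 13.05 at 24 h, and Ifnb1, which encodes interferon β, 13.16 and 13.08 against 8.50 and 8.26. DNA replication genes stood at 0.32 and 2.99, and 27 of 32 were higher and 1 lower at 24 h than at 4 h. Glycolysis genes stood at -0.15 and 0.74, 12 of 20 being higher and 3 lower at 24 h. Some genes were on opposite sides of the unstimulated level at the 2 times. Csf1 changed by 2.33 at 4 h and -1.47 at 24 h, Nr4a1, a nuclear receptor, by 2.30 and -1.73, and Tlr2 by 1.06 and -1.89. Scd2 changed by -2.46 at 4 h and 2.62 at 24 h, and Slc16a3 by -1.54 and 2.37.

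**Figure D4:**
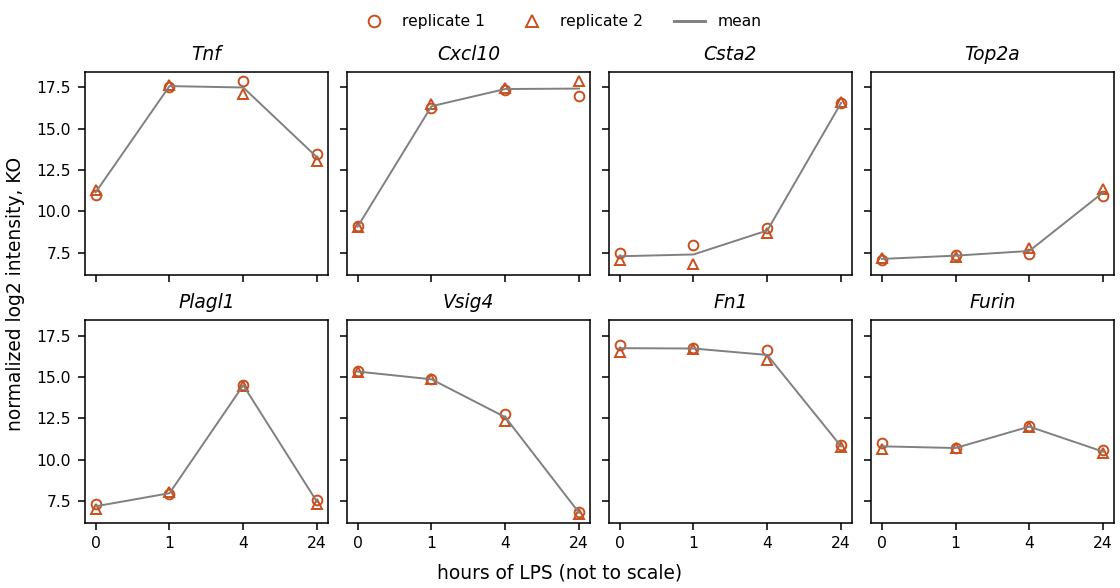
Normalized log2 intensity (y axis) of 8 genes in KO cells without LPS (0) and after 1, 4 and 24 h (x axis, evenly spaced and not to scale); circles are replicate 1, triangles replicate 2 and gray lines the means. Tnf had come down from 17.90 and 17.09 at 4 h to 13.49 and 13.05 at 24 h, Csta2 and Top2a were high at 24 h, and Plagl1 was high at 4 h and back near its unstimulated level at 24 h.

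Whether the response depends on FURIN was asked by testing the KO response at 24 h minus the WT response. Of the 10581 genes called in KO, 9402 were called the same way in WT (88.9% of the KO calls and 83.6% of the 11247 WT calls), 4 the opposite way and 1175 were not called in WT. KO and WT channels of a time share an array. Of 36936 genes 2 differed in their response (0.00541%), both lower in KO. An unadjusted p under 0.05 was found for 1226, a share of all tested below the 0.05 expected with no difference. With the replicate number and the dye as a block, 94 differed, 32 higher and 62 lower in KO. Olr1, which encodes the oxidized LDL receptor LOX-1, read 11.61 and 11.42 in unstimulated KO and 8.26 and 8.67 at 24 h, against 10.66 and 10.87 and then 9.84 and 9.60 in WT. Its fall was thus deeper in KO by 2.00 on the log2 scale (the KO minus WT difference was -2.00, SE 0.23, adjusted p = 0.0273). Serpinb2, which encodes the plasminogen activator inhibitor PAI-2, read 15.92 and 15.82 unstimulated and 16.60 and 16.39 at 24 h in KO, against 14.29 and 14.06 and then 16.34 and 16.67 in WT. Its response was smaller in KO by a difference of -1.71 (SE 0.21, adjusted p = 0.0273), and the groups differed at the start and not at 24 h: KO was above WT by 1.69 unstimulated (adjusted p = 0.00104) and by -0.01 at 24 h. Both calls were lost without unstimulated replicate 1 (adjusted p = 0.9999 for both) and without unstimulated replicate 2 (0.171 for Olr1 and 0.200 for Serpinb2). That of Olr1 was also lost without 24 h replicate 1 (adjusted p = 0.0792), and that of Serpinb2 without 24 h replicate 2 (0.197) or either 4 h replicate (0.0768), or with the scanner software's processed signals (-1.68, adjusted p = 0.0546). With only the 4 arrays compared neither passed (adjusted p = 0.176 for both), nor with a fit of the KO/WT ratios (0.247) or of the authors' ratios (0.237). The differences kept their direction and much of their size in each, from -1.67 to -2.32 for Olr1 and from -1.44 to -1.97 for Serpinb2 when arrays were left out. The response of Il1b was 5.62 in KO and 7.41 in WT (difference -1.79, adjusted p = 0.221, and 0.0415 with the block). Il19 went the other way (difference 1.52, adjusted p = 0.2205, and 0.0295 with the block). At 24 h Il19 was higher in KO than in WT by 1.49 (adjusted p = 0.0160). Furin itself changed by -0.32 in KO and -0.40 in WT.

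**Figure D5:**
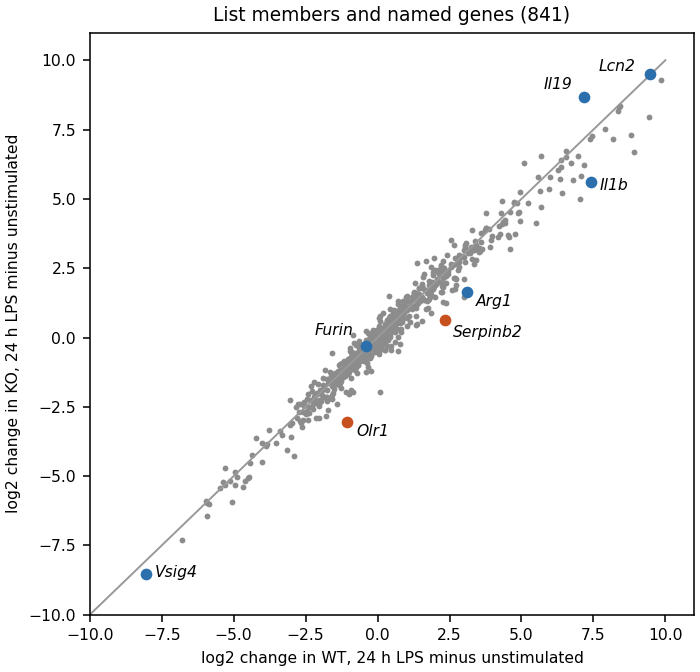
Log2 change from unstimulated to 24 h LPS in KO (y axis) against WT cells (x axis) for the 841 list members and named genes; the gray line marks equal responses, and orange points are the 2 genes whose responses passed the test of the difference, Olr1 (-3.05 in KO, -1.05 in WT) and Serpinb2 (0.62 and 2.33). Blue points are other labeled genes.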

How the data were processed

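RNA of KO and WT cells of each time was hybridized together on 8 Agilent G3 mouse 8x60K arrays, and the deposited files hold, per the file headers, linear spot intensities (median signals and local background) from Agilent Feature Extraction 10.7.3. A deposited table of log2 Cy5/Cy3 ratios, loess and quantile normalized by the authors in limma, served as an alternative. From the median signals, background was corrected (normexp, offset 50), and loess within and quantile normalization between arrays followed. Spots of a probe were averaged, the brightest probe stood for a gene, and a mean log2 intensity of at least 6 was required. The separate-channel model of limma 3.58.1 (R 4.3.3) was fitted to all 16 channels, with a within-spot correlation of 0.105, 1 mean per genotype and time, empirical Bayes and Benjamini-Hochberg adjustment. It was tested on simulated data. The same fit gave the differences from WT and from 4 h. Same-numbered KO channels deviated together (correlations from 0.2144 to 0.3365 for the 6 pairs of times), but within KO the number is also the dye. WT channels carried the opposite dye, and the replicate block added separate terms for the replicate number and the dye. All arrays were on 1 slide and scan, and array number limits the precision.

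Named genes were Furin, Lyz2, the Pcsk genes, Tgfb1, Tnf, Il1b, Il6, Il10, Nos2 and Arg1, the 12 largest rises and falls (1 fall is not reported here), the 5 largest each way of the other contrasts, and up to 4 each way per list with the members a list is known by; Isg15, Nfkbia, Cdk1, Gata6 and genes given for opposite 4 h and 24 h changes were added after their values were seen. The members, lists and tests were chosen with earlier results of these data known. Promoters are from RefSeq (GRCm38.p6).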

Additional observations from a re-analysis of the deposited data

Results flagged for a closer look

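The response to 24 h of LPS differed between KO and WT for 2 genes by the test of the difference. The KO response minus the WT response was -2.00 (log2) for Olr1, with -2.52 and -1.47 in replicates 1 and 2, and -1.71 for Serpinb2, with -1.37 and -2.04. Pcsk1 moved in opposite directions in the 2 genotypes on all arrays, with a KO minus WT difference of -0.18 that did not pass the test, and it was not well above background in unstimulated or 24 h KO cells.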

How the results depend on the processing

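The total count of changed genes in KO at 24 h stayed within 1.5 times the main count under each alternative but the methods' t-test on the 2 and 2 channels, which called 630 (278 higher, 352 lower) after Benjamini-Hochberg adjustment, and 1 gene for 24 h against 4 h (0 higher, 1 lower). Leaving out each array in turn gave 8603 to 10888 (3855 to 4881 higher, 4612 to 6007 lower), and 9114 to 11093 for 24 h against 4 h. With normalization within arrays only, the latter had 8316 higher and 2186 lower, and the excess of falls in KO at 24 h became an excess of rises (4974 higher, 4213 lower).

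The KO minus WT response rested on few genes. It had 7 calls with Aquantile normalization (0 higher, 7 lower), 19 within arrays only (6 and 13), 4 with no background correction (0 and 4), 3 with no filter on dim probes (0 and 3), 5 with the mean of a gene's probes (0 and 5), 94 with the replicate block (32 and 62), and 0 with only the 4 arrays compared, with the fit of the ratios or with the authors' ratios. Leaving out each array gave 0 to 10 (0 to 5 higher, 0 to 5 lower), with 0 without either unstimulated array and 10 without 24 h replicate 1. Other counts changed by less than 1.5 times under the block (12254 in KO at 24 h, 13108 against 4 h).

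Of the named genes' values, 6 changed sign, all small: Pcsk2 (-0.0422 within arrays only, -0.0214 with no background correction, and -0.1447 to 0.1573 leaving out arrays), Plagl1 (-0.0126 with the mean of its probes) and Pcsk6 (-0.112 to 0.0888 leaving out arrays). Each group has 2 channels, and between 45.6% and 48% of probes were well above background in the unstimulated and 24 h KO channels. Of the genes called in KO at 24 h, 189 were not well above background in either of these groups.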
